A study of Mus musculus with 4 samples.

Results

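The insulin-like growth factor (IGF) axis was examined in mouse hearts after transverse aortic constriction (TAC), a narrowing of the aortic arch that loads the left ventricle with pressure. The set held 10 genes of the 21657 genes with a named probe on the array: the ligands Igf1 and Igf2, the receptors Igf1r and Igf2r, and the binding proteins Igfbp2 to Igfbp7. They were found by the transcript accession of each probe, a rule that uses no measured value, and were read by 15 probes with 28 spots. Total RNA of male hearts labelled sham or TAC, at 2 weeks (labelled age 10 weeks) and at 8 weeks (labelled age 16 weeks) after surgery, was hybridized to 4 single-colour arrays, 1 for each condition. Per the study's methods the mice were C57BL/6J, and each array held RNA pooled from several mice in equal amounts. The methods give an age at surgery that does not match the labelled ages. The study took the earlier time for its hypertrophic stage and the later one for failure. Because each condition was 1 pool, the spread between mice was not measured, no p-value was computed, and the ages differ along with the time after surgery.

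IGF-1 and IGF-2 are small secreted growth factors that resemble insulin. The IGF-1 receptor is a tyrosine kinase that passes their signal on through insulin receptor substrates to the PI3 kinase-Akt and MAP kinase cascades, and in the heart this route is known for physiological growth and survival of cardiac myocytes. The IGF-2 receptor, which is also the cation-independent mannose 6-phosphate receptor, carries IGF-2 to the lysosome. IGF-binding proteins hold the ligands in the circulation and in the matrix, and can either withhold them from the receptor or keep them near it.

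Binding proteins showed the widest differences between TAC and sham. Igfbp7 and Igfbp2 were more than 2-fold higher after TAC at 8 weeks. Igfbp5 and Igfbp6 were 1.85-fold and 1.77-fold higher at that time. By its brightest probe, Igf1 was about 1.5-fold higher at both times. The other Igf1 probes spanned 0.969 to 1.39 times the sham level in the 8-week comparison. The level of Igf2r differed from its sham by at most 1.13-fold, that of Igf1r by less, and Igfbp4 was the member with the lowest ratio, 0.730 times its sham level at 8 weeks. Levels are given below as multiples of the 75th percentile of each array's signals, so that 1 is a signal brighter than 3 in 4 of the probes. The SD that follows a log2 ratio is that between spots of one probe at a similar signal. Where a probe had several spots, it is divided by the square root of their number. It covers only the scatter between spots. Error that all spots of an array share, such as its scaling, and differences between probes of a gene are not covered. This SD ran, before division, from 0.05 to 0.06 log2 units for signals above 4 to 0.26 to 0.30 for signals below 0.25.

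**Figure D1:**
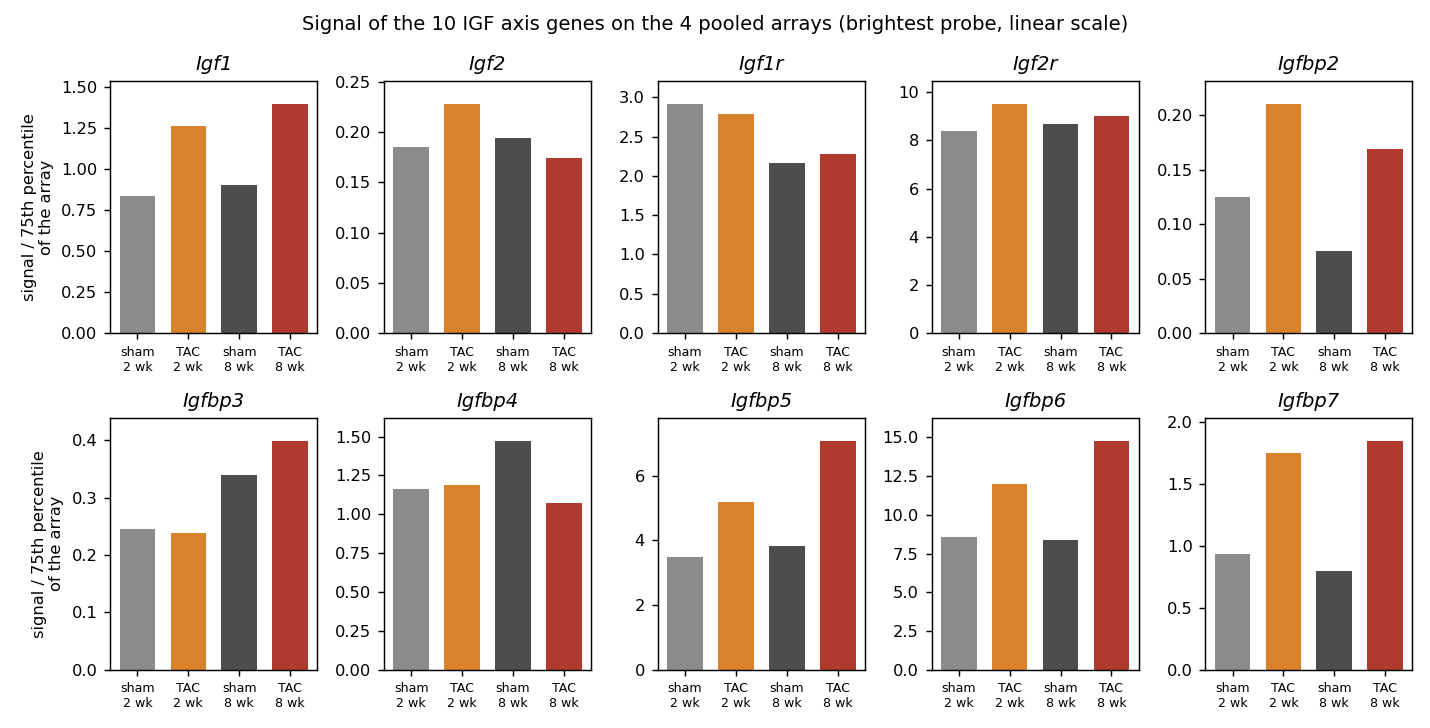
Signal of each of the 10 genes by its brightest probe (y axis, multiple of the array's 75th percentile, linear and starting at 0; the scales differ between panels) on the 4 pooled arrays (x axis). Each bar is 1 array, so there are no error bars. For Igf1, Igf2r, Igfbp2, Igfbp5, Igfbp6 and Igfbp7 both TAC bars stand above both sham bars.

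The level of Igf1, the growth factor that growth hormone induces in the liver and that the heart also makes, was 0.837 on the sham and 1.26 on the TAC array at 2 weeks, and at 8 weeks it was 0.903 and 1.40. Both TAC arrays were above both sham arrays. The log2 ratio was 0.59 ± 0.06 at 2 weeks and 0.63 ± 0.06 at 8 weeks (spot SD, 2 spots). These correspond to 1.51-fold and 1.55-fold, against 0.11 between both sham arrays. Igf1 was read by 4 probes of 2 spots each, all named by the same transcript. Over the 6 spots of the 3 brighter probes, the mean log2 ratio was 0.59 ± 0.10 at 2 weeks and 0.51 ± 0.11 at 8 weeks (SD, n = 6 spots), and each of the 6 spots was higher after TAC at both times. The fourth and dimmest probe had log2 ratios of 0.43 and -0.05 on levels of 0.153, 0.207, 0.164 and 0.159, and did not show the 8-week difference. The files hold no probe sequences, so the part of the transcript that each probe reads was not determined.

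**Figure D2:**
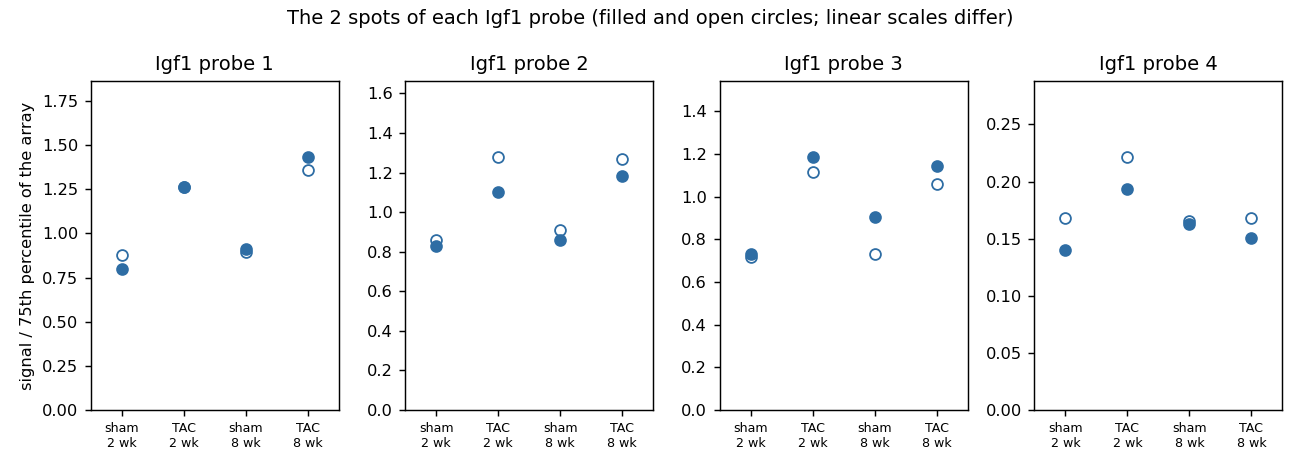
The 4 probes of Igf1, ordered by mean signal, with the 2 spots of each as filled and open circles (y axis, multiple of the array's 75th percentile, linear with scales that differ; x axis, the 4 arrays). In the 3 brighter probes both spots of each TAC array lie above both spots of each sham array, whereas in the fourth the 8-week spots overlap.

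Igf2, the ligand that dominates in the fetus, was dim in these adult hearts. Its level was 0.186 on the sham and 0.228 on the TAC array at 2 weeks, and 0.194 and 0.174 at 8 weeks. The log2 ratios of 0.30 ± 0.29 and -0.16 ± 0.26 (spot SD) were opposite in sign, and the second was smaller than its spot SD, so that no difference in Igf2 was detectable at this signal. Ins2, the coding gene next to Igf2 on chromosome 7, had log2 ratios of -0.05 and -0.19.

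Igf1r, the receptor tyrosine kinase, had 2-week levels of 2.91 (sham) and 2.78 (TAC) and 8-week levels of 2.16 and 2.28. The arrays fell by time rather than by surgery: both 2-week arrays were above both 8-week arrays. The log2 ratio of TAC over sham was -0.07 ± 0.08 at 2 weeks and 0.08 ± 0.08 at 8 weeks, whereas the sham array at 8 weeks was lower than that at 2 weeks by a log2 difference of -0.43 ± 0.08. Of the genes measured in this comparison of sham arrays, 3.90% had a log2 difference at least as low.

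Igf2r, the scavenger receptor of IGF-2, was read by 1 probe with 10 spots, and its level was 8.39 and 9.52 at 2 weeks and 8.68 and 9.02 at 8 weeks (sham, then TAC). The mean log2 ratio over the 10 spots was 0.18 ± 0.03 at 2 weeks and 0.05 ± 0.05 at 8 weeks (SD, n = 10 spots). The TAC level was the higher one in 10 of 10 spots at 2 weeks and in 9 of 10 at 8 weeks. These spots read the same 2 pools at each time and share the scaling of each array, so their agreement does not settle so small a difference. The 8-week log2 ratio was 0.015 with quantile scaling and 0.22 without scaling. Of all genes measured, 25.6% at 2 weeks and 40.2% at 8 weeks had a log2 ratio at least as high.

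Igfbp7, also called angiomodulin, is a secreted protein of vessels and stroma that binds IGFs only weakly. Its level was 0.931 on the sham and 1.75 on the TAC array at 2 weeks, and 0.796 and 1.85 at 8 weeks. The TAC levels were close to each other and well apart from those of the sham arrays. The log2 ratio was 0.91 ± 0.08 (1.88-fold) at 2 weeks and 1.21 ± 0.08 (2.32-fold) at 8 weeks, and the difference between sham arrays was -0.23 ± 0.08. Of the genes measured, 2.91% at 2 weeks and 2.33% at 8 weeks had a log2 ratio at least as high. With a normexp background correction the 8-week log2 ratio was 0.99, just under 2-fold.

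Igfbp2, a binding protein of fetal tissues and of the circulation, was dim. The level was 0.125 and 0.210 at 2 weeks and 0.0757 and 0.169 at 8 weeks (sham, then TAC), and the brighter probe was well above background on all 4 arrays. Both TAC arrays were above both sham arrays, and the sham level itself was lower at 8 weeks by a log2 difference of -0.72 ± 0.30. The log2 ratio was 0.75 ± 0.29 (1.68-fold) at 2 weeks and 1.16 ± 0.26 (2.23-fold) at 8 weeks. A second probe of Igfbp2 was well above background on both TAC arrays (levels 0.0857 and 0.0677) and on neither sham array, which gave at least 1.43-fold at 2 weeks and at least 1.28-fold at 8 weeks, measured against the lowest signal well above background on the sham array. The size depended on the processing of dim signals: with normexp on the median signals and an offset of 50, the log2 ratios of the brighter probe were 0.27 and 0.33. That offset is larger than the processed signals of the brighter probe, which were 16.7 to 43.3.

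Igfbp5, a binding protein of the matrix and the most conserved of the family, had 2-week levels of 3.47 on sham and 5.19 on TAC, and 8-week levels of 3.84 on sham and 7.08 on TAC. The TAC levels were above both sham levels, and the TAC level at 8 weeks was the highest of the 4. The log2 ratio was 0.58 ± 0.06 (1.49-fold) at 2 weeks and 0.88 ± 0.05 (1.85-fold) at 8 weeks, and 0.14 ± 0.06 between sham arrays. Of the genes measured, 6.90% and 3.88% had a ratio at least as high at 2 and 8 weeks.

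Igfbp6, which prefers IGF-2 over IGF-1, likewise had its highest level on the TAC array at 8 weeks. Its level was 8.54 and 12.0 at 2 weeks and 8.38 and 14.8 at 8 weeks (sham, then TAC). The sham levels were nearly equal, with a log2 difference of -0.03 ± 0.06, and both TAC levels were above them. The log2 ratio was 0.49 ± 0.06 (1.40-fold) at 2 weeks and 0.82 ± 0.05 (1.77-fold) at 8 weeks.

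Igfbp3, the main carrier of IGFs in serum, had 2-week levels of 0.245 on sham and 0.238 on TAC, and 8-week levels of 0.340 on sham and 0.399 on TAC. As with Igf1r, the arrays were ordered by time, here with both 8-week arrays above both 2-week arrays. The log2 ratio of TAC over sham was -0.04 ± 0.14 and 0.23 ± 0.13, smaller than the difference of 0.47 ± 0.15 between sham arrays and of 0.74 ± 0.14 between TAC arrays. A second probe, named by another transcript of Igfbp3, was well above background only on the TAC array at 8 weeks, at least 1.19-fold above its sham. Its signals, not well above background on the other 3 arrays, were ordered by surgery instead, and with the mean of both probes the log2 ratios of Igfbp3 were 0.60 at 2 weeks and 0.86 at 8 weeks.

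Igfbp4, a binding protein that mainly withholds IGFs and is cut by the protease PAPP-A, had 2-week levels of 1.16 on sham and 1.19 on TAC, and 8-week levels of 1.47 on sham and 1.07 on TAC. The sham array at 8 weeks stood above the other 3; this array was also the higher of both sham arrays in the 4 atrial markers given below, and their part was not tested. The log2 ratio was 0.04 ± 0.08 at 2 weeks and -0.46 ± 0.08 (0.730 times) at 8 weeks, and the sham arrays differed by 0.34 ± 0.08. Pappa, which encodes PAPP-A and was chosen here after its values were seen, had levels of 0.265, 0.257, 0.519 and 0.278 in the same order, and its sham level at 8 weeks likewise stood above the other 3.

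**Figure D3:**
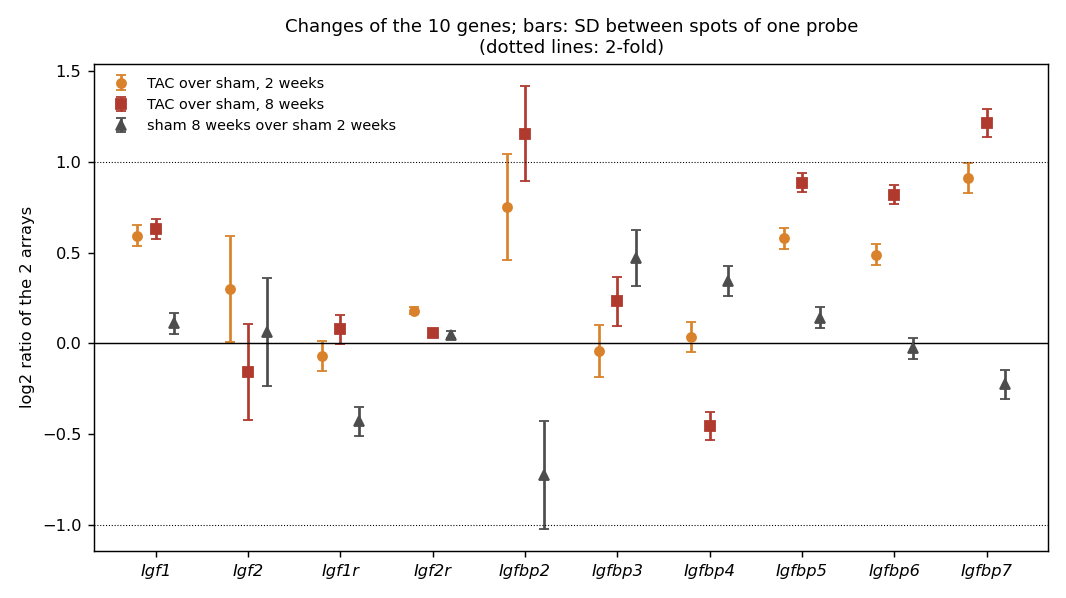
Log2 ratio of 2 arrays (y axis) for the 10 genes (x axis): TAC over sham at 2 weeks (circles), TAC over sham at 8 weeks (squares) and sham at 8 weeks over sham at 2 weeks (triangles). Bars are ± the SD between spots of one probe at that signal, not the spread between mice, and dotted lines mark 2-fold. For Igf1, Igfbp2, Igfbp5, Igfbp6 and Igfbp7 circles and squares lie above both 0 and the triangles by more than these bars.

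By the rule of size used here (over 2-fold, with the brighter array well above background), 0 of the 10 genes were higher after TAC at 2 weeks, where 2.41% of the 15356 genes measured were, and 2 of 10 (Igfbp2 and Igfbp7) were higher at 8 weeks, where 3.26% of 15420 genes were. None was over 2-fold lower, against 1.19% of genes at 2 weeks and 2.05% at 8 weeks. At 1.5-fold, 3 of 10 were higher at 2 weeks (Igf1, Igfbp2 and Igfbp7; 6.77% of genes), with Igf1 just inside at 1.51-fold and Igfbp5 just outside at 1.49-fold, and 5 of 10 were higher at 8 weeks (with Igfbp5 and Igfbp6 added; 7.24% of genes). None was over 1.5-fold lower, against 3.33% and 5.62% of genes. Igf1, Igfbp2 and Igfbp7 were over 1.5-fold higher at both times, as were 2.58% of 15802 genes. With normexp neither Igf1 (0.44 and 0.50) nor Igfbp2 passed 1.5-fold at either time, and with the mean of its probes Igf1 did not (0.55 and 0.37). With median scaling Igf1 passed only at 8 weeks (0.55 and 0.72). At 2 weeks Igfbp5 passed 1.5-fold with quantile scaling and with the deposited table (0.60 in each). In 6 of 10, both TAC arrays were above both sham arrays, as in 23.8% of the 14250 genes measured on all 4 arrays. The median log2 ratio of the 10 genes was 0.39 at 2 weeks and 0.43 at 8 weeks, beside 0.00 and -0.01 for all genes measured. For the 6 binding proteins alone it was 0.53 and 0.85. These counts describe 2 pairs of pools and were not tested.

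**Figure D4:**
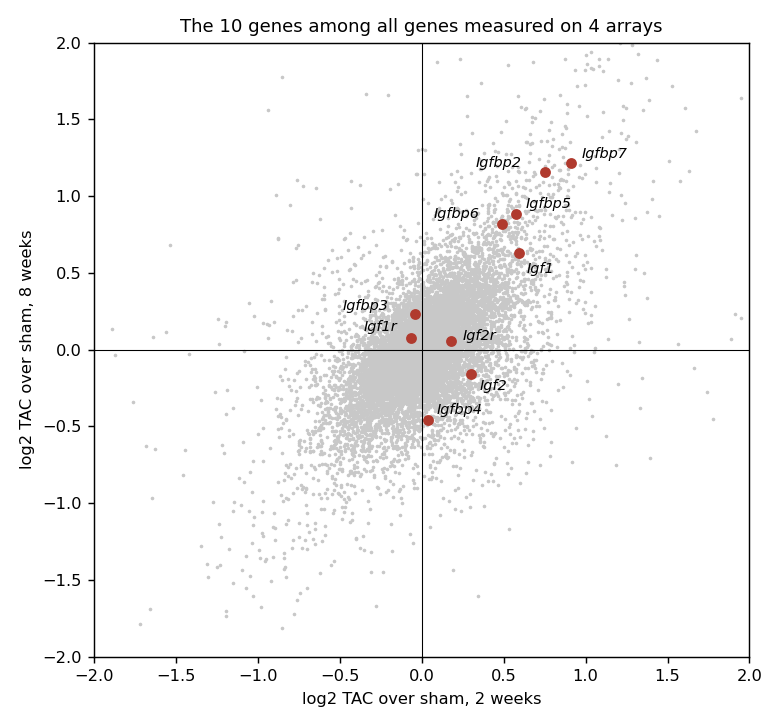
Log2 ratio of TAC over sham at 2 weeks (x axis) against that at 8 weeks (y axis) for the genes measured on all 4 arrays (grey points, brightest probe of each gene) and the 10 IGF axis genes (red, named); 55 of the 14250 genes lie outside the plotted range. Igfbp2, Igfbp5, Igfbp6, Igfbp7 and Igf1 lie to the upper right, and the receptors and Igf2 near the centre.

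Compared with 2 weeks, the log2 ratio at 8 weeks was larger by 0.41 for Igfbp2, 0.31 for Igfbp5, 0.33 for Igfbp6 and 0.30 for Igfbp7. It was also larger by 0.27 for Igfbp3 and 0.15 for Igf1r. It was lower for Igfbp4, Igf2 and Igf2r, by log2 differences of -0.49, -0.45 and -0.13. For Igf1 it was 0.04 larger by the brightest probe, less than the spot SD, and smaller by the other 3 probes. Between the TAC arrays alone, Igfbp5 was higher at 8 weeks by 0.45 ± 0.06 and Igfbp6 by 0.30 ± 0.06, whereas Igfbp7 differed by 0.08 ± 0.09 and Igfbp2 was lower by a log2 difference of -0.32 ± 0.26. The larger ratio of Igfbp5 and Igfbp6 thus came with a higher TAC level, and that of Igfbp7 with a lower sham level. For Igfbp2, a larger ratio and a lower sham level were seen with the brighter probe only. Its gain of 0.41 stands beside spot SDs of 0.29 and 0.26 for the ratios compared. On the second Igfbp2 probe the ratio shrank instead, by a log2 difference of -0.54, with neither sham signal well above background. The genes lie on 7 chromosomes. Igfbp2 and Igfbp5 are neighbouring coding genes on chromosome 1, and Igfbp3 is the neighbour of Igfbp1 on chromosome 11, where Igfbp1, a binding protein made mainly by the liver, was not well above background on any array.

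The 250 bases before the annotated start of the 4 binding proteins that were higher after TAC are shown to let their promoters be compared, since these genes were higher together (RefSeq, GRCm38.p6, 5′ to 3′ on the coding strand; the first of 2 annotated starts for Igfbp2). Capitals mark matches on either strand to 3 motifs: the GC box, searched as GGGCGG, the CCAAT box, searched by the letters of its name, and the core promoter element searched as TATAAA, called the TATA box. The motifs share no letters with one another in these windows.
Igfbp2, chr1:72824230-72824479, plus strand: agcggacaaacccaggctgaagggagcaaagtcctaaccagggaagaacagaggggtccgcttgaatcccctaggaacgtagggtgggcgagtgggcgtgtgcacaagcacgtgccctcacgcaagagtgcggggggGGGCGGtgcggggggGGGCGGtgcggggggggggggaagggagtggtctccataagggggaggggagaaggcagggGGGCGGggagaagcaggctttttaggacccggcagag
Igfbp5, chr1:72874866-72875115, minus strand: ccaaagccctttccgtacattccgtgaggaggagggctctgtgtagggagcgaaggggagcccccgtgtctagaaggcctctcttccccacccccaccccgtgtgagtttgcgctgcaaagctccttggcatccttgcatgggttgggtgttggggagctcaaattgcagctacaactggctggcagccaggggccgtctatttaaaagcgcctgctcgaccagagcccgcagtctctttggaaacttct
Igfbp6, chr15:102143936-102144185, plus strand: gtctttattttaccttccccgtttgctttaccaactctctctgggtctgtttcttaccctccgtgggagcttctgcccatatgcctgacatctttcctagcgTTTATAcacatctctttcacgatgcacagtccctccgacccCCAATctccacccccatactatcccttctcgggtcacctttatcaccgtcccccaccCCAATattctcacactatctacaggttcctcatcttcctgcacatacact
Igfbp7, chr5:77408046-77408295, minus strand: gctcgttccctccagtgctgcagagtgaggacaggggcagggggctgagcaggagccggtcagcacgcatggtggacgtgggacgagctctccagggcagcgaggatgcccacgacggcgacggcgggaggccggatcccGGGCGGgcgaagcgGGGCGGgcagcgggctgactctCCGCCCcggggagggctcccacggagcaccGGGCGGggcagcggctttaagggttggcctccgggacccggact
No motif of these was in all 4 windows. Igfbp7 held 4 GC boxes and Igfbp2 held 3, while Igfbp5 and Igfbp6 held none. The window of the second annotated Igfbp2 start, not shown, held none of the 3 motifs. Of the other members with 1 window, Igf2r held 3 GC boxes and Igf1r held 2, and Igf1, Igfbp3 and Igfbp4 held none. Of 32851 such windows in the RefSeq table, 32.7% held at least 1 GC box. Igfbp6 held 2 CCAAT boxes (in 33.8% of windows) and 1 TATA box on the opposite strand (in 12.4%). The CArG box, the motif of serum response factor, was in none of the 4 and in 1.47% of windows. The share of G and C was 67.2% for Igfbp2, 58.8% for Igfbp5, 49.6% for Igfbp6 and 74.0% for Igfbp7, against a median of 52.4%. These are matches of letters only, and bear on no factor's binding.

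Among genes of IGF availability and the insulin ligands Ins1 and Ins2 (13 listed, 8 well above background on all arrays), 0 were over 2-fold higher or lower at 2 weeks, and 1 was higher at 8 weeks. This was Adamts1, a secreted metalloprotease, with levels of 4.69 and 6.77 at 2 weeks and 3.81 and 8.06 at 8 weeks (sham, then TAC), or log2 ratios of 0.53 and 1.08. The counts of this list and of the lists below stand beside 2.41% of all genes over 2-fold higher at 2 weeks and 3.26% at 8 weeks. Over 2-fold lower were 1.19% and 2.05%. In lists this short, counts of 0 or 1 are near these shares. The median log2 ratio of the 8 genes was -0.04 at 2 weeks and 0.16 at 8 weeks. Stc1, an inhibitor of PAPP-A, had log2 ratios of 1.25 and 1.65 but was not well above background on any array, nor were Igfbp1, Pappa2 and Igfbpl1. Htra1, a serine protease that cleaves Igfbp5 and was chosen after its values were seen, was lower after TAC: its level was 51.2 and 36.3 at 2 weeks and 54.5 and 35.2 at 8 weeks (log2 ratios -0.50 and -0.63). Igfals, the acid-labile subunit of the serum complex, had log2 ratios of 0.37 and 0.77.

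Of the 23 receptor and signalling genes downstream, 22 were well above background on all arrays, and their median log2 ratios were 0.06 and 0.07. No gene was over 2-fold higher or lower at 2 weeks, and 2 were higher at 8 weeks. Irs2, an insulin receptor substrate that couples the insulin and IGF-1 receptors to PI3 kinase, had levels of 6.84 and 8.80 at 2 weeks. At 8 weeks its levels were 8.21 and 19.3 (log2 ratios 0.36 and 1.23), so that the TAC array at 8 weeks stood apart from the other 3. Its partner Irs1 had log2 ratios of 0.09 and -0.17. Tsc2, a brake on mTOR, was dim, at levels of 0.193, 0.148, 0.146 and 0.307, with log2 ratios of -0.38 and 1.07. Insrr, the insulin receptor-related receptor, had log2 ratios of -0.79 and -0.83 at levels between 0.0559 and 0.121, and its TAC signal at 2 weeks was not well above background.

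In the growth hormone axis (7 genes, all well above background), no gene was over 2-fold higher or lower at either time, and the median log2 ratio was 0.07 and -0.01. Ghr, the growth hormone receptor, chosen after its values were seen, had 2-week levels of 7.62 on sham and 5.37 on TAC, and 8-week levels of 8.35 on sham and 6.15 on TAC, both TAC levels below both sham levels (log2 ratios -0.51 and -0.44). Among the 12 IGF2 mRNA-binding and imprinted growth genes with a probe, 0 were over 2-fold higher at 2 weeks and 1 at 8 weeks, and 0 lower. That gene was Dlk1, a fetal membrane protein, which was well above background only on the TAC array at 8 weeks. It is counted by a measured sham signal at background, and the values support only at least 1.20-fold. Nnat was well above background only on the sham array at 8 weeks and at least 1.67-fold lower after TAC. Igf2bp1 and Igf2bp3, which bind Igf2 mRNA in the fetus, were not well above background on any array.

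**Figure D5:**
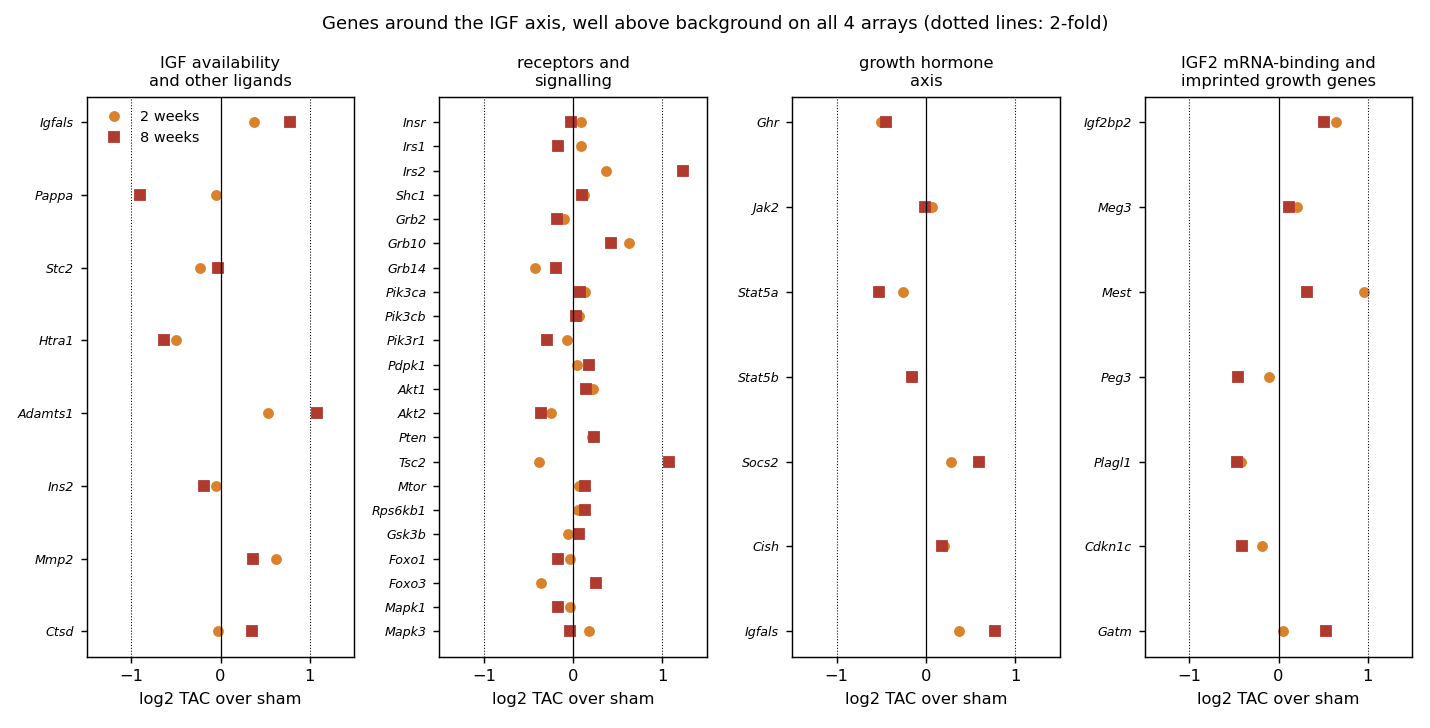
Log2 ratio of TAC over sham (x axis) at 2 weeks (circles) and 8 weeks (squares) for the genes of 4 lists around the IGF axis that were well above background on all 4 arrays (y axis, 1 gene a line). Dotted lines mark 2-fold, and Adamts1, Irs2 and Tsc2 lie beyond it at 8 weeks.

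Markers of fibroblasts and macrophages were also higher after TAC. All 8 fibroblast markers were well above background, 8 of 8 were higher after TAC at 2 weeks and 7 of 8 at 8 weeks, and their median log2 ratio was 0.89 and 0.85; of all genes measured, 50.1% were higher at 2 weeks and 48.5% at 8 weeks. Their summed level was 208 (sham) and 287 (TAC) at 2 weeks and 232 and 339 at 8 weeks, led in ratio by Postn, the matrix protein periostin of activated fibroblasts, with log2 ratios of 2.29 and 2.92. Pdgfra (0.31 and 0.40) and Dcn (0.18 and 0.28) had smaller ratios, and Tcf21, a transcription factor of resident fibroblasts, had 0.07 and -0.55. The 6 macrophage markers with a probe were all higher after TAC at both times, with a median of 0.44 and 0.36 and summed levels of 33.6, 42.0, 34.7 and 43.7. The 6 endothelial markers had medians of 0.19 and -0.03, the 6 mural ones 0.17 and 0.07, and the 6 cardiomyocyte ones -0.17 and -0.17. The part of these cells in the differences of Igf1 and the binding proteins was not tested. In RNA of heart tissue, more cells of a type cannot be told apart from more RNA per cell. None of the 4 adipocyte markers was well above background on any array. Of the 4 atrial markers, Dkk3 was over 2-fold higher after TAC at both times (log2 ratios 1.63 and 1.17), whereas Myl7 and Sln were not well above background on the TAC array at 8 weeks, at least 3.64-fold and at least 2.55-fold below its sham. The sham array at 8 weeks was itself the higher of both sham arrays in all 4 atrial markers, with log2 differences of 0.32 for Myl4, 0.63 for Sln and 1.27 for Dkk3, and at least 2.84-fold for Myl7. The mesothelial marker Msln had log2 ratios of 1.12 and -0.56 and the B cell marker Ms4a1 of 1.14 and 0.04, and both erythroid markers with a probe lay between -0.28 and 0.13.

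The 4 pressure overload genes Nppa, Nppb, Myh7 and Acta1 were all over 2-fold higher after TAC at both times, with log2 ratios between 1.03 and 3.09 (2 weeks) and between 1.94 and 3.69 (8 weeks), which checks the TAC labels. The cardiomyocyte genes Myh6, Tnnt2 and Tnni3 had signals of 505 to 1854 times the 75th percentile, which checks the heart label. Between 54.7% and 58.5% of probes were well above background on an array, and no spot was saturated.

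Igfbp2 had the widest range of the 10 genes over the 4 arrays, 1.47 log2 units. The genes whose 4 values were most like it, each centred on its own mean, were Entpd1, Ctla2a, Kif20a, Esm1 and Cxcr4, with a greatest difference on any array of 0.13 to 0.21 log2 units. This likeness rests on 4 arrays, and the distances are below the spot SD of a probe as dim as Igfbp2.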

How the data were processed

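Total RNA, extracted with TRIzol, was labelled with Cy3 and hybridized to single-colour Agilent SurePrint G3 Mouse 8x60K arrays annotated on mm9. The deposited scanner files were made by the authors with Agilent Feature Extraction (10.7.3.1 in the file headers, 9.1 in the submitters' processing notes) and hold an intensity per spot, the processed signal, corrected for background and not scaled between arrays, with flags for spots well above background, outliers and saturation. A deposited series-wide table gives each intensity multiplied by 1 constant an array (3.52 to 4.35). The methods name GeneSpring GX11 and no normalization. All arrays shared 1 slide and scan, so neither could be tested as a batch. The number of arrays, 1 for each condition, limits the precision.

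From these, log2 of the processed signal minus the array's 75th percentile over the 55681 probes other than controls was taken (percentiles 206 to 248), without outlier spots (none among the 28 of the IGF axis) and with the spots of a probe averaged. Probes were named by accession through RefSeq (GRCm38.p6) and GENCODE tables, which matched 29346 of 31389 transcript accessions; a gene was represented by its brightest probe on average. No coordinate was converted between builds. A gene counted as measured in a comparison when well above background on either array. For a dim array the lower limit of a fold was taken against that array's dimmest value flagged well above background, or against the probe's value where this was brighter. The rule for names was: all 10 genes; from each list, at most 8 genes over 1.5-fold in one direction at both times, or over 2-fold at either time on a bright enough array; and the 5 genes most like the widest-ranging one. The members, lists and rules were chosen with earlier results of these data known. Calling was tested on simulated data. Alternatives were median, quantile and no scaling, the percentile over spots, normexp (offset 50, limma 3.58.1, R 4.3.3) on the median signals, the deposited table, the mean of a gene's probes, outlier spots kept, and other thresholds. Python 3.11.15 with pandas 2.3.3 and numpy 2.4.6 was used.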

Additional observations from a re-analysis of the deposited data

How the results depend on the processing

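Counts of genes over 2-fold lower were 0 at both times under each alternative. The count higher at 2 weeks was 0 except with the mean of a gene's probes (1) and at a 1.5-fold threshold (3). The count higher at 8 weeks was 2, and 3 without scaling, 5 at a 1.5-fold threshold, and 0 at 3-fold or with normexp background correction. The median log2 ratio of the 10 genes was 0.21 at 2 weeks and 0.25 at 8 weeks with normexp, and at 8 weeks 0.60 both without scaling and with the mean of a gene's probes; with the mean of a gene's probes the 2-week median was 0.52. Under the other alternatives these medians ranged from 0.35 to 0.42 at 2 weeks and from 0.41 to 0.52 at 8 weeks. The median difference between sham arrays, added after the data were seen, ranged from 0.00 to 0.16. Without scaling the 8-week median of all genes was itself 0.16, since the TAC array at 8 weeks was brighter.

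Of 160 single log2 ratios (10 genes, 2 times, 8 alternatives), 132 moved by less than the SD of a single spot and 28 by more. This SD was not divided for probes with several spots. For Igf2r the divided SD was 0.02, and some of its moves counted as smaller exceeded it, as from 0.18 to 0.14 at 2 weeks with median scaling. In all, 4 ratios changed sign, none of them among the genes over 2-fold. Igf1, Igf2r, Igfbp2, Igfbp5, Igfbp6 and Igfbp7 were higher after TAC at both times under each of the 8 alternatives. For Igf2r the 8-week difference was small, from 0.015 to 0.22. Igf1 at 8 weeks ranged from 0.37 (mean of its probes) to 0.80 (no scaling), and Igfbp2 from 0.27 to 1.57 at 2 weeks. Igfbp3 turned from -0.04 to 0.60 at 2 weeks with the mean of its probes. The normexp setting lowers the ratios of dim probes by construction, since it adds an offset. Dim signal limits Igf2, Igfbp2 and Igfbp3, and the difference between mice is not covered by any value here.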

Other observations

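The genes most like Igfbp7 over the 4 arrays, a comparison added after its values were seen, were Col1a1, Birc5, Mki67, Loxl2 and Ms4a6d, with a greatest difference of centred log2 values of 0.06 to 0.10. Col1a1 encodes a chain of collagen I, Loxl2 a collagen cross-linking enzyme, and Birc5 and Mki67 are genes of dividing cells. Those most like Igfbp5 were Lpar1, Map6, Pam, Phlda3 and Cox19, at 0.03 to 0.05, and those most like Igfbp6 were Mxra7, Clip1, Dpysl3, Tgfb3 and Clstn3, at 0.03 to 0.04. With 4 arrays and 14250 genes, close patterns are easily found, and these names are given as a description.

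Mest, an imprinted gene, had 2-week levels of 0.678 on sham and 1.31 on TAC and 8-week levels of 0.754 on sham and 0.942 on TAC, or log2 ratios of 0.95 and 0.32. Igf2bp2, the member of its family that was well above background on all arrays, had log2 ratios of 0.64 and 0.51. Both were chosen after their values were seen.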
